A study of Gallus gallus with 8 samples.

Results

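Amino acid transporters were examined as the genes whose single symbol in the array annotation falls in the solute carrier families SLC1A, SLC3A, SLC6A, SLC7A, SLC15A, SLC36A, SLC38A or SLC43A. There were 49 such genes among the 13009 genes with a single symbol, and each was read from its brightest probe set, by the mean of all 8 arrays. RNA came from pooled chondrocytes of the chick tibiotarsus growth plate, the cartilage that lengthens the main bone of the lower leg. There were 4 arrays of hypertrophic cells from chicks 1 day old and 4 arrays of proliferative cells from chicks 3 weeks old. The labels state that no treatment applied, and the sources used here do not give strain or sex. Because stage and age differ together, their effects cannot be told apart. The labels do not state whether arrays within a group stand for different birds or different pools, so each p reflects the spread between these 8 samples alone, which could be technical.

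Amino acids cross the cell membrane through carriers that fall into systems by substrate and by driving force. Sodium-coupled carriers such as those of SLC38 concentrate small neutral amino acids, and exchangers of SLC7, most of them bound to a heavy chain of SLC3, trade internal amino acids for large neutral or cationic ones. SLC43 carriers let large neutral amino acids flow down their gradient. Some SLC36 carriers move amino acids together with protons, and SLC15 carriers take up short peptides. SLC6 holds carriers of glycine, proline and other neutral amino acids beside those of taurine, betaine, creatine and the monoamine transmitters. Chondrocytes make a matrix rich in collagen, which calls for glycine and proline, and leucine, arginine and glutamine also feed the mTORC1 growth pathway. These roles were worked out mainly in mammals, and the chicken genes are matched to them here by symbol.

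Of 11 genes of the hypertrophic stage 4 were higher in hypertrophic cells and 0 lower, and of 16 genes of mitosis 0 were higher and 13 lower, where 7.34% of all genes were higher and 5.60% lower. Chondrocyte genes were bright in both groups, with a mean log2 level of 13.1 to 13.4 on hypertrophic and 13.4 to 13.5 on proliferative arrays. The matrix phosphoglycoprotein gene MEPE was higher in hypertrophic cells by 3.49 ± 0.22 on the log2 scale (SE, n = 4 arrays per group), and the matrix protein gene SPP1 by 2.77 ± 0.34. The proliferation gene MKI67 fell by 1.76 on the log2 scale, with SE 0.28 (limma adjusted p = 0.00763), while COL10A1, the collagen of hypertrophic cartilage, did not pass, at 0.66 ± 0.43. COL10A1 was bright in both groups, at 13.74 to 14.32 on hypertrophic arrays and 11.99, 13.42, 14.14 and 14.07 on proliferative arrays 1 to 4. The stage genes IHH and PANX3 differed by -0.43 ± 0.29 and -0.50 ± 0.42 without passing, and the rest of that list had positive differences. MMP9, among the 4 higher stage genes, also stands on the osteoclast list below. Stage list means were 10.67 to 10.94 on hypertrophic and 8.31 to 9.77 on proliferative arrays. Over bright probe sets, those with a log2 level above 8 on every array, array 3 was almost a copy of array 4 in both groups. The difference between them had an SD of 0.176 in hypertrophic and 0.152 in proliferative cells over 3687 bright probe sets, against 0.323 to 0.814 for the other pairs of arrays within a group. Each transporter call is therefore given also with arrays 3 and 4 of each group averaged into 1 sample, where 2.01% of all genes were higher and 1.24% lower. So averaged, 2 genes of the hypertrophic stage were higher and 4 of mitosis lower, and MKI67 had limma adjusted p = 0.0577. Genes of some other cell types differed as well. Endothelial genes had 5 of 15 higher and 0 lower (3 and 0 averaged), with a mean log2 level of 6.17 to 6.49 on hypertrophic and 5.54 to 5.75 on proliferative arrays, and group means of KDR and MMRN2 below background in both groups. Leukocyte genes had 2 of 10 higher and 1 lower (1 and 0 averaged), with list means of 5.38 to 6.28 on hypertrophic and 4.77 to 4.99 on proliferative arrays, and group means of PTPRC, CYBB and ITGB2 below background, although ITGB2 was above it on 1 hypertrophic array. Osteoclast genes had 3 of 10 higher and 1 lower (1 and 0 averaged), with list means of 7.36 to 7.91 on hypertrophic and 6.36 to 7.05 on proliferative arrays, and group means of CALCR, OCSTAMP and DCSTAMP below background, although OCSTAMP was above it on 2 hypertrophic arrays. Adipocyte genes had 2 of 7 higher and 1 lower (1 and 0 averaged), with list means of 5.73 to 6.53 on hypertrophic and 5.26 to 5.46 on proliferative arrays. Erythroid genes had 0 of 8 higher and 0 lower, with list means of 7.67 to 7.87 on hypertrophic and 7.14 to 7.75 on proliferative arrays. The haemoglobin gene HBAD was bright in both groups, at 11.47 to 11.86 and 8.45 to 11.52. Osteoblast genes had 0 of 9 higher and 0 lower, with list means of 8.39 to 8.55 on hypertrophic and 7.04 to 7.98 on proliferative arrays. The part of these cell types in the transporter results was not tested, and in bulk RNA fewer cells of a type and less RNA per cell cannot be told apart.

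Of the 49 transporter genes, 7 were higher in hypertrophic cells, 2 were lower and 40 did not pass (limma, two-sided, Benjamini-Hochberg adjusted p under 0.05 over 38439 probe sets). The shares are 14.3% higher and 4.08% lower, and over all genes 7.34% were higher and 5.60% lower. With arrays 3 and 4 averaged, 3 members were higher and 1 was lower, beside the 2.01% and 1.24% of all genes. The groups did not overlap for 9 higher and 5 lower members, against 10.6% and 9.67% of all genes. The median difference of the members was -0.02 on the log2 scale, beside -0.01 for all genes. Without hypertrophic array 1, limma called 8 members higher and 5 lower, while over all genes it called 1562 higher and 941 lower, beside 955 and 728 on all 8 arrays. The lower count was 1 without hypertrophic array 3 or proliferative array 3, and 0 without hypertrophic array 2 or 4 or proliferative array 1 or 4. An unadjusted p under 0.05 was reached by 10 higher and 8 lower members. The background level, a log2 value of 4.75, was set from 744 viral and reporter probe sets, as the highest over the arrays of their 95th percentile. Both group means of 16 members lay below it, and those members differed by -0.20 to 0.22 with none past the test. Among the 33 members with a group mean above it, the median difference was 0.03, beside -0.01 for the 9905 genes of that kind.

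**Figure D1:**
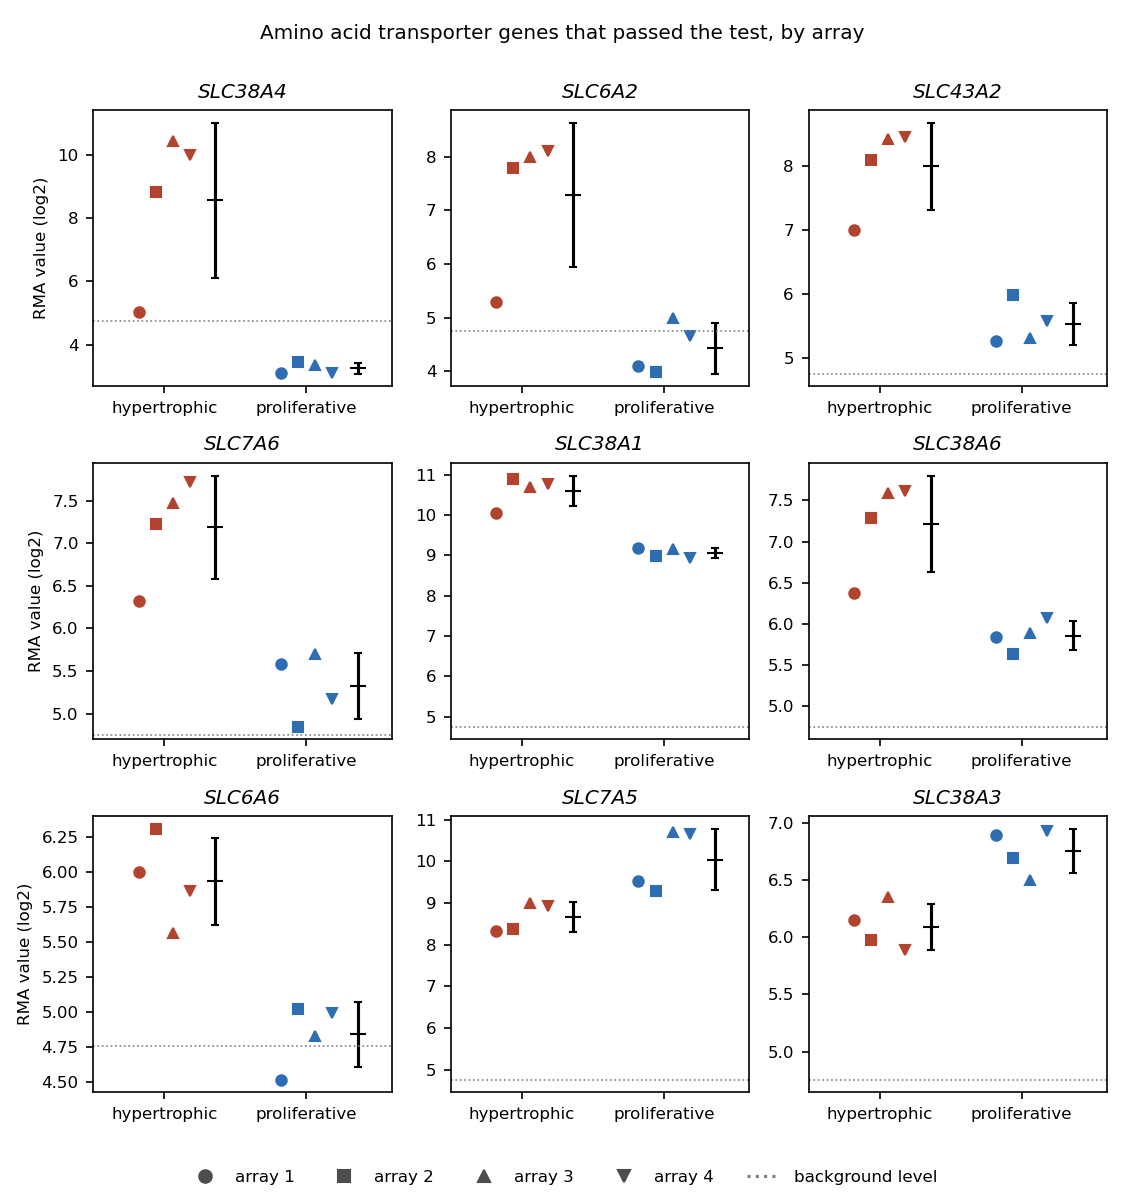
RMA log2 values of the 9 members that passed the test, 1 panel each, with hypertrophic arrays on the left and proliferative arrays on the right. Symbols mark arrays 1 to 4, black bars give the mean ± SD (n = 4), the dotted line is the background level of 4.75, and vertical axes differ between panels. Hypertrophic and proliferative arrays do not overlap in any of the 9 panels. Hypertrophic array 1 is the lowest of its group in 6 of the 7 members that were higher, a share not counted over all genes.

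The SLC38 family of sodium-coupled carriers for glutamine and other neutral amino acids had 3 of its 9 measured genes higher and 1 lower. With arrays 3 and 4 averaged, 1 was higher and 1 lower. Over all genes, 7.34% were higher and 5.60% lower on 8 arrays. SLC38A1, a glutamine carrier of system A, had log2 levels of 10.04, 10.89, 10.68 and 10.77 on hypertrophic arrays 1 to 4, against 9.19, 8.99, 9.15 and 8.94 on proliferative arrays 1 to 4. Each hypertrophic array lay above each proliferative array, with array 1 the lowest of the hypertrophic group. The log2 difference was 1.53 ± 0.18 (SE, limma adjusted p = 0.00212), with adjusted p = 0.0338 after averaging arrays 3 and 4, and it passed whichever single array was left out. SLC38A1 has 7 probe sets. A second one also passed, with a log2 difference of 1.36 ± 0.25 (adjusted p = 0.0129, averaged 0.0918), and the other 5 ran from 0.22 to 1.61 without passing. The mean of the 7 probe sets of SLC38A1 differed by 1.003 (limma adjusted p = 0.0414).

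SLC38A4, a system A carrier that mammals express mainly in liver, showed the greatest difference of the members. Its log2 levels were 5.03, 8.84, 10.46 and 10.00 on hypertrophic arrays, against 3.10, 3.44, 3.35 and 3.09 on proliferative arrays. All 4 proliferative arrays lay below background, and hypertrophic array 1 lay just above it, far below the other hypertrophic arrays. The estimated log2 difference was 5.33 ± 1.01 (limma adjusted p = 0.0145), and it was at least 3.83 with the proliferative arrays set to the background level, a bound on the estimate that leaves out sampling error. Averaging arrays 3 and 4 gave 4.78 with adjusted p = 0.105, which did not pass. Arrays 1 and 2 alone gave 3.66, and arrays 3 and 4 alone gave 7.01.

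SLC38A6, an SLC38 gene with no single agreed substrate, had log2 levels of 6.37, 7.28, 7.59 and 7.62 on hypertrophic arrays, against 5.85, 5.63, 5.90 and 6.07 on proliferative arrays. The groups did not overlap, although hypertrophic array 1 lay close to the proliferative arrays. SLC38A6 was higher by 1.36 ± 0.26 on the log2 scale (limma adjusted p = 0.0157), with adjusted p = 0.103 on averaging arrays 3 and 4 and 0.0504 without proliferative array 3. Its second probe set passed as well, at 1.45 ± 0.24 on the log2 scale (adjusted p = 0.00834, averaged 0.0559). SLC38A3, the system N carrier of glutamine and histidine, went the other way. Its log2 levels were 6.15, 5.98, 6.35 and 5.89 on hypertrophic arrays, against 6.89, 6.70, 6.50 and 6.93 on proliferative arrays. The groups lay apart by a narrow margin at array 3 of each. SLC38A3 fell by 0.66 on the log2 scale, with SE 0.14 (limma adjusted p = 0.0230), and adjusted p was 0.04997 on averaging arrays 3 and 4. For this gene arrays 3 and 4 were the opposite extremes of each group. Averaging them therefore removed the widest spread, with SE 0.126 in place of 0.142. SLC38A3 did not pass without hypertrophic array 2 or 4 or proliferative array 1 or 4, with limma adjusted p of 0.0643 to 0.0736.

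SLC38A2, the system A carrier that cells raise when amino acids run short, had no settled direction. Its log2 levels were 9.83, 10.97, 12.19 and 12.03 on hypertrophic arrays, against 11.30, 11.58, 11.34 and 10.85 on proliferative arrays. Hypertrophic arrays 3 and 4 were above and hypertrophic array 1 below each of the proliferative arrays. The log2 difference was -0.01 ± 0.47 (limma adjusted p = 0.994). For SLC38A2, arrays 1 and 2 alone gave -1.04. Arrays 3 and 4 alone gave 1.01 in the opposite direction (limma adjusted p = 0.00244). Those arrays are nearly copies of each other over bright probe sets. Single genes could lie further apart, as SLC38A2 did at 11.34 and 10.85 on proliferative arrays 3 and 4. SLC38A9, the lysosomal arginine sensor of mTORC1, differed by -0.59 ± 0.20 (limma adjusted p = 0.106) and SLC38A10 by -0.49 ± 0.23, on the log2 scale. SLC38A7 differed by 0.13 ± 0.14, and SLC38A11 lay below background in both groups.

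The 3 system A genes lie side by side in chicken assembly GRCg7b, in the order SLC38A1, SLC38A2 and SLC38A4, between SCAF11 and AMIGO2. SLC38A2, the middle gene, had a log2 difference of -0.01 ± 0.47 with no settled direction, beside 1.53 for SLC38A1 and 5.33 for SLC38A4. AMIGO2, the adhesion protein gene next to SLC38A4, had log2 levels of 5.10, 5.50, 6.44 and 6.86 on hypertrophic arrays, against 4.16, 4.09, 3.87 and 4.01 on proliferative arrays. It was higher by an estimated 1.94 ± 0.35 on the log2 scale and by at least 1.22 against background (limma adjusted p = 0.0116), with adjusted p = 0.0806 on averaging arrays 3 and 4, and the mean of the AMIGO2 probe sets differed by 1.05. SCAF11, on the other side of SLC38A1, differed by 0.22 ± 0.15 (limma adjusted p = 0.448).

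The exchangers of SLC7 gave 1 higher and 1 lower gene of 7 light chains measured (0 and 0 averaged). Among all genes on 8 arrays, 7.34% were higher and 5.60% lower. SLC7A5 is the light chain of the leucine exchanger LAT1. Its log2 levels were 8.33, 8.37, 8.996 and 8.93 on hypertrophic arrays, against 9.53, 9.28, 10.70 and 10.65 on proliferative arrays. Each hypertrophic array lay below each proliferative array, and arrays 3 and 4 were above arrays 1 and 2 in both groups. SLC7A5 fell by 1.39 on the log2 scale, with SE 0.35 (limma adjusted p = 0.0406). The call was the weakest of the 9. It held on leaving out proliferative array 2 but not on leaving out any other single array, where adjusted p was 0.0512 to 0.110, and averaging arrays 3 and 4 gave 0.156. A second probe set of SLC7A5 also passed, with a log2 difference of -1.33 ± 0.32 (limma adjusted p = 0.0364, averaged 0.150). The other 2 differed by -0.03 ± 0.17 and -0.05 ± 0.09, and the mean of all 4 by -0.70 (adjusted p = 0.0297).

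SLC7A6, the light chain of an exchanger of arginine and lysine for neutral amino acids, had log2 levels of 6.32, 7.23, 7.47 and 7.72 on hypertrophic arrays, against 5.58, 4.84, 5.70 and 5.17 on proliferative arrays. The groups did not overlap, and array 1 was again the lowest hypertrophic one. The log2 difference was 1.86 ± 0.31 (limma adjusted p = 0.00826), and it passed whichever single array was left out, while averaging arrays 3 and 4 gave adjusted p = 0.0626. Its dimmer second probe set, at 0.88 ± 0.40, missed the threshold (adjusted p = 0.235). SLC7A6OS, a separate gene named for its place opposite SLC7A6 and not a member, differed by -0.11 ± 0.18 (limma adjusted p = 0.801). SLC7A11, the cystine and glutamate exchanger that supplies cysteine for glutathione, differed by 0.28 ± 0.17 (adjusted p = 0.393). The heavy chain SLC3A1 had log2 levels of 3.58, 3.85, 4.39 and 5.21 on hypertrophic arrays, against 4.86, 6.13, 4.05 and 4.00 on proliferative arrays, which straddle background and overlap. SLC3A1 differed by -0.50 ± 0.51 (limma adjusted p = 0.649), with -1.78 on arrays 1 and 2 alone and 0.78 on arrays 3 and 4 alone. SLC3A2, the heavy chain that SLC7A5 and SLC7A6 bind, was not analysed here.

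None of the 5 measured cationic carriers of SLC7 passed the test. SLC7A1, the widely used carrier of arginine and lysine, had log2 levels of 6.64, 6.53, 6.11 and 5.78 on hypertrophic arrays, against 6.85, 6.68, 7.64 and 7.63 on proliferative arrays. Its groups did not overlap, with arrays 1 and 2 of each group close together and arrays 3 and 4 far apart. Its log2 difference of -0.93 ± 0.28 did not pass (limma adjusted p = 0.0725), and without hypertrophic array 1 adjusted p was 0.0454. SLC7A3, a second arginine and lysine carrier, had log2 levels of 10.75, 10.14, 9.37 and 9.27 on hypertrophic arrays, against 10.43, 10.63, 10.84 and 10.85 on proliferative arrays. Hypertrophic array 1 overlapped the proliferative range and hypertrophic arrays 2 to 4 lay below it. The log2 difference of -0.81 ± 0.31 did not pass (limma adjusted p = 0.154), and without hypertrophic array 1 adjusted p was 0.0133. Of its other 6 probe sets, 3 differed by -0.90, -1.54 and -1.30 on the log2 scale without passing (adjusted p 0.0577 to 0.0854). The other 3 probe sets of SLC7A3 differed by -0.11, -0.17 and -0.52 (adjusted p 0.703, 0.478 and 0.248). Taken as the mean of its probe sets, SLC7A3 passed as lower.

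**Figure D2:**
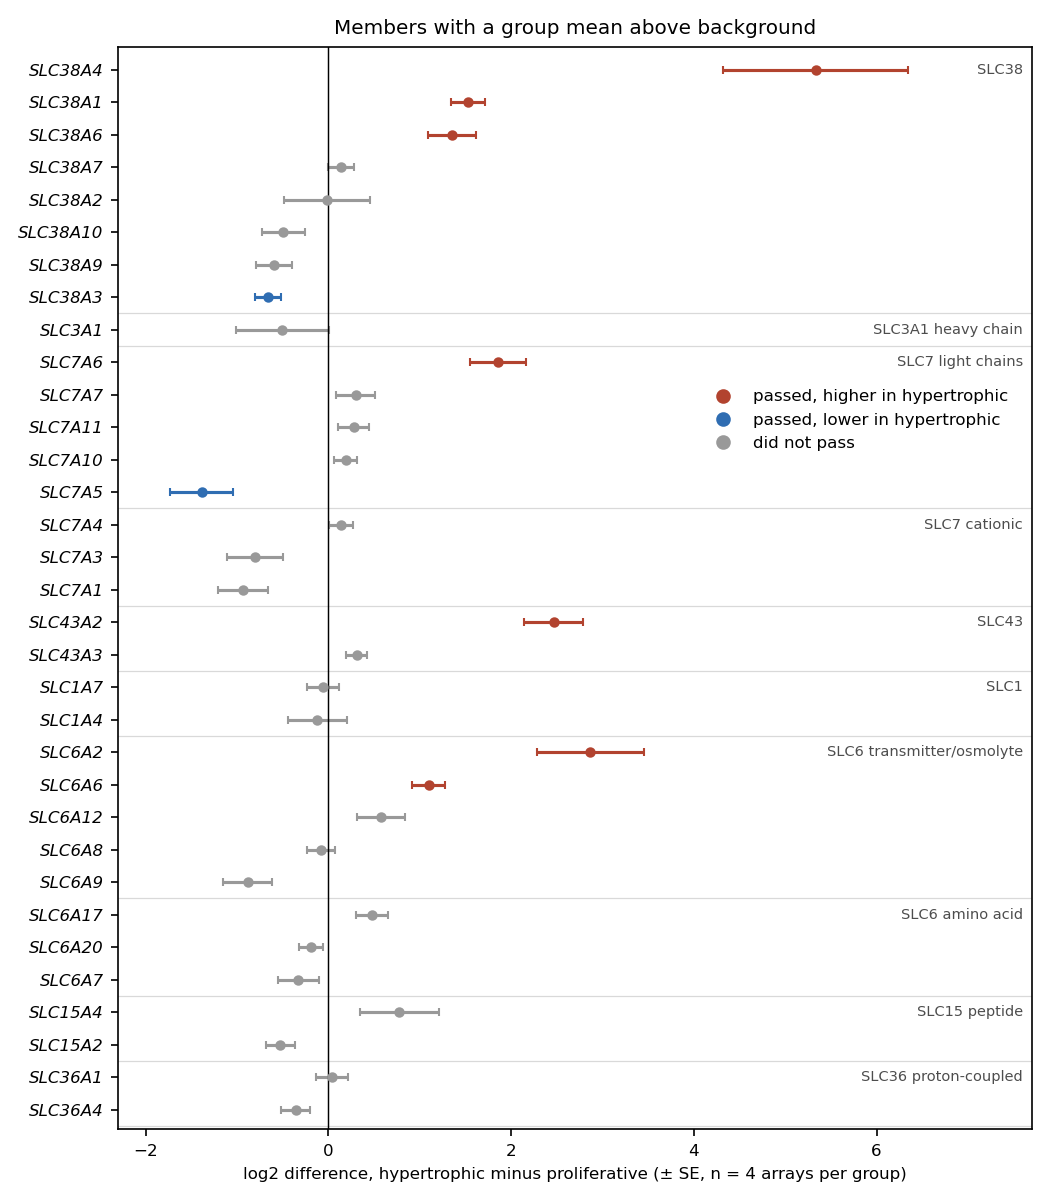
Log2 difference, hypertrophic minus proliferative, for the 33 members with a group mean above background, grouped by family, with bars for the SE of the limma fit (n = 4 arrays per group). Red points passed the test as higher, blue points as lower and grey points did not pass. Differences run from -1.39 for SLC7A5 to 5.33 for SLC38A4, and most lie within 1 of 0.

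SLC43A2, a facilitated carrier of leucine and other large neutral amino acids, was higher in hypertrophic cells. Its log2 levels were 7.0005, 8.10, 8.43 and 8.46 on hypertrophic arrays, against 5.26, 5.99, 5.31 and 5.57 on proliferative arrays. The lowest hypertrophic array lay about 1 log2 unit above the highest proliferative array. SLC43A2 was higher by 2.47 ± 0.32 on the log2 scale (limma adjusted p = 0.00305), with adjusted p = 0.0411 on averaging arrays 3 and 4, and it passed whichever single array was left out. Its relative SLC43A3, which carries purine nucleobases in mammals, differed by 0.31 ± 0.12 (adjusted p = 0.160). SLC43A2 and the leucine exchanger gene SLC7A5 thus differed in direction, SLC43A2 higher by 2.47 and SLC7A5 lower by 1.39 in hypertrophic cells, on the log2 scale. The SLC7A5 call did not pass on averaging arrays 3 and 4 (limma adjusted p = 0.156) or without most of the single arrays.

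The SLC6 genes for osmolytes and transmitters had 2 of 8 higher and 0 lower (1 and 0 averaged), where 7.34% of all genes were higher and 5.60% lower. SLC6A6, the taurine carrier, had log2 levels of 6.004, 6.31, 5.56 and 5.86 on hypertrophic arrays, against 4.51, 5.02, 4.83 and 4.99 on proliferative arrays. It was the only risen member whose lowest hypertrophic value was not on array 1, and its groups did not overlap. The log2 difference was 1.10 ± 0.18 (limma adjusted p = 0.00794), with adjusted p = 0.0429 on averaging arrays 3 and 4, and it passed whichever single array was left out. Taken as the mean of its 4 probe sets, the difference was 0.57 and missed the threshold (adjusted p = 0.0652). SLC6A12, a carrier of betaine and GABA, had log2 levels of 6.03, 6.58, 7.28 and 7.11 on hypertrophic arrays, against 6.07, 6.40, 5.90 and 6.32 on proliferative arrays, which overlapped. It differed by 0.58 ± 0.26 (limma adjusted p = 0.236), and without hypertrophic array 1 adjusted p was 0.0281. A second probe set of SLC6A12 did pass, at 1.49 ± 0.36 on the log2 scale and at least 1.02 against background (adjusted p = 0.0355, averaged 0.181). The other 4 probe sets of SLC6A12 differed by 0.65, 0.35, -0.18 and -0.09 without passing, and the mean of its probe sets passed as higher.

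SLC6A2, the noradrenaline carrier, belongs to the family although its substrate is no amino acid. Its log2 levels were 5.28, 7.79, 7.99 and 8.11 on hypertrophic arrays, against 4.09, 3.98, 4.99 and 4.66 on proliferative arrays. Hypertrophic array 1 lay near the proliferative arrays and the other 3 lay well above them. The estimated log2 difference was 2.87 ± 0.59, or at least 2.48 against background (limma adjusted p = 0.0200). It passed without hypertrophic array 1 or proliferative array 3, did not pass without any of the other 6 arrays (limma adjusted p 0.0508 to 0.0592), and had adjusted p = 0.115 on averaging arrays 3 and 4. SLC6A9, the glycine carrier GlyT1, had log2 levels of 8.52, 8.22, 7.23 and 7.40 on hypertrophic arrays, against 8.75, 8.66, 8.76 and 8.74 on proliferative arrays. The groups did not overlap, and the proliferative arrays differed among themselves far less than the hypertrophic ones. The log2 difference of -0.88 ± 0.27 did not pass (limma adjusted p = 0.0804), and without hypertrophic array 1 adjusted p was 0.0128. SLC6A8, the creatine carrier, differed by -0.08 ± 0.15. None of the 5 SLC6 genes for neutral amino acids passed. SLC6A17, which loads synaptic vesicles with neutral amino acids, had log2 levels of 5.64, 5.52, 6.31 and 6.02 on hypertrophic arrays, against 5.34, 5.50, 5.26 and 5.46 on proliferative arrays. Its groups lay apart by a narrow margin, with a log2 difference of 0.48 ± 0.17 (limma adjusted p = 0.135).

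The remaining families held no gene past the test. Of 6 SLC1 genes, the carriers of glutamate and of small neutral amino acids, 4 lay below background in both groups. SLC1A4, a carrier of alanine, serine and cysteine, had log2 levels of 8.43, 8.00, 7.94 and 8.04 on hypertrophic arrays, against 7.40, 7.85, 8.96 and 8.70 on proliferative arrays. The hypertrophic values lay inside the proliferative range, and the log2 difference was -0.12 ± 0.32 (limma adjusted p = 0.889). A second probe set of SLC1A4 went the other way without passing, at 0.89 ± 0.55 (limma adjusted p = 0.399). It read 10.01, 7.63, 7.54 and 7.74 on hypertrophic arrays, against 6.63, 7.10, 7.81 and 7.79 on proliferative arrays. SLC1A6 was higher on each hypertrophic array, with a log2 difference of 0.22 ± 0.09, but all its levels were below background: 4.55, 4.51, 4.41 and 4.53 on hypertrophic arrays, against 4.26, 4.38, 4.19 and 4.28 on proliferative arrays. SLC15A2, a proton-coupled carrier of short peptides, had log2 levels of 6.88, 6.91, 6.39 and 6.39 on hypertrophic arrays, against 7.22, 7.32, 6.93 and 7.21 on proliferative arrays. Its groups lay apart by a narrow margin, with a log2 difference of -0.53 ± 0.16 (limma adjusted p = 0.0786), and without hypertrophic array 1 adjusted p was 0.0436. SLC15A4, a lysosomal histidine and peptide carrier, differed by 0.78 ± 0.43 on the log2 scale. The SLC36 genes SLC36A1 and SLC36A4 differed by 0.03 ± 0.18 and -0.36 ± 0.16.

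**Figure D3:**
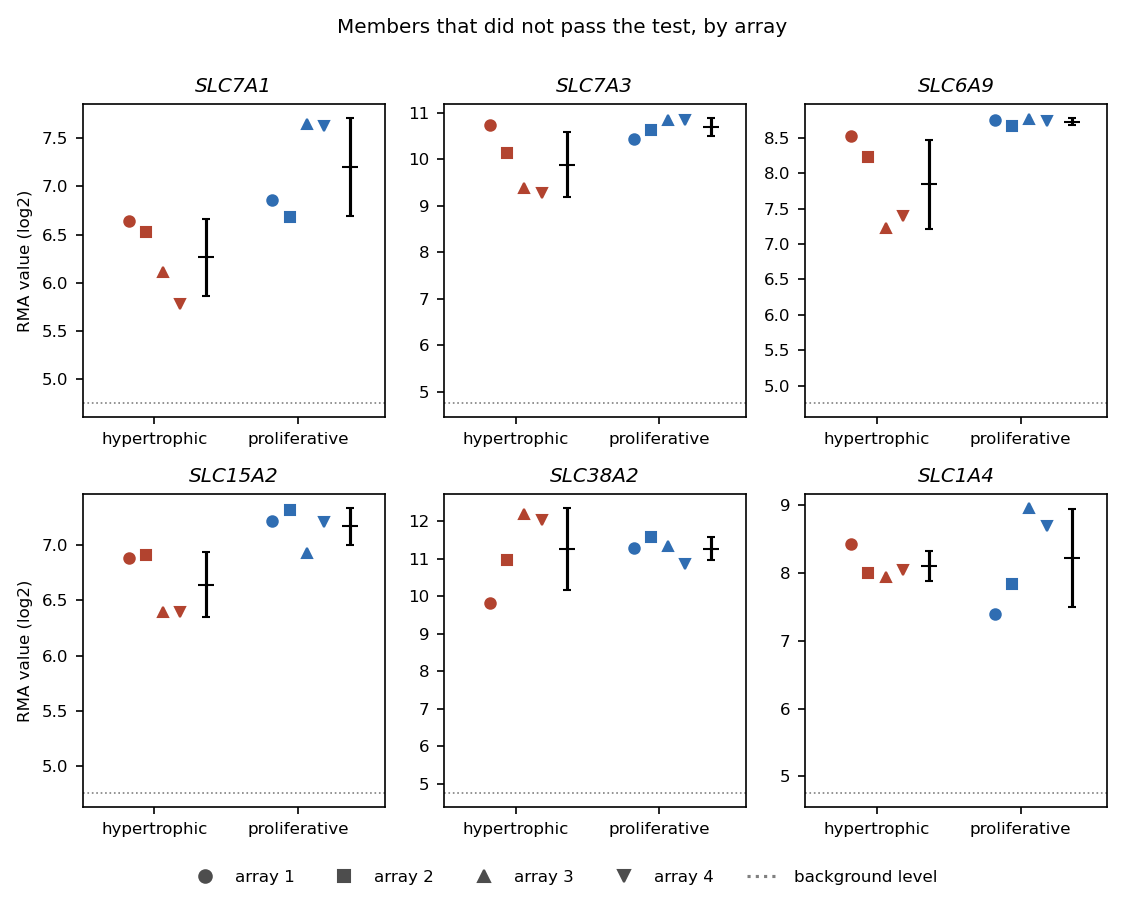
RMA log2 values of 6 members that did not pass the test, hypertrophic arrays on the left and proliferative arrays on the right, with symbols for arrays 1 to 4, mean ± SD (n = 4) in black and the background level dotted. SLC7A1, SLC6A9 and SLC15A2 have groups that do not overlap, SLC7A3 overlaps at hypertrophic array 1, and the groups of SLC38A2 and SLC1A4 overlap.

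The size of the member differences varied with the arrays used. In 6 of the 7 risen members, all but SLC6A6, hypertrophic array 1 was the lowest hypertrophic array. The share of all risen genes for which this held was not counted. Over bright probe sets the widest SDs within a group, 0.814 and 0.795, were those of hypertrophic array 1 against arrays 3 and 4. Outside the members, the risen genes SPP1, GLUL and SESN1 were lowest on hypertrophic array 1 too, while MEPE and GGT7 were not. The endothelial gene CDH5, the osteoclast gene ATP6V0D2, the leukocyte gene CD74 and the fatty acid carrier gene FABP4 were highest on that array among hypertrophic arrays, with log2 levels of 8.29, 8.25, 9.79 and 6.75. The leukocyte gene LAPTM5 and the adipocyte gene ADIPOQ were lowest on it, with log2 levels of 6.95 and 5.53, as 6 of the 7 risen transporters were. The endothelial genes TEK, PECAM1 and ERG were lowest on it too, at 6.19, 6.07 and 6.99, so single genes did not all follow their list. Among hypertrophic arrays, the list means of endothelial, osteoclast and leukocyte genes were highest on array 1, at 6.49, 7.91 and 6.28. That of adipocyte genes was lowest on it, at 5.73. SLC38A4 spanned the widest range, SLC6A6 was the only risen member with a smaller difference on arrays 3 and 4 than on arrays 1 and 2, and SLC38A3 stayed between -0.73 and -0.60 on the log2 scale. None of the 9 changed direction between these sets of arrays. The 3′ over 5′ log2 difference of the ACTB control, a sign of RNA quality, also split the arrays, at 1.58, 1.35, 0.86 and 1.06 on hypertrophic arrays 1 to 4, against 1.90, 1.80, 0.97 and 0.86 on proliferative arrays 1 to 4. That of GAPDH was -0.06 on hypertrophic array 1 and -0.45 to -0.37 on the other hypertrophic arrays, against -0.53 to -0.34 on proliferative arrays. Their part in the member differences was not tested.

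**Figure D4:**
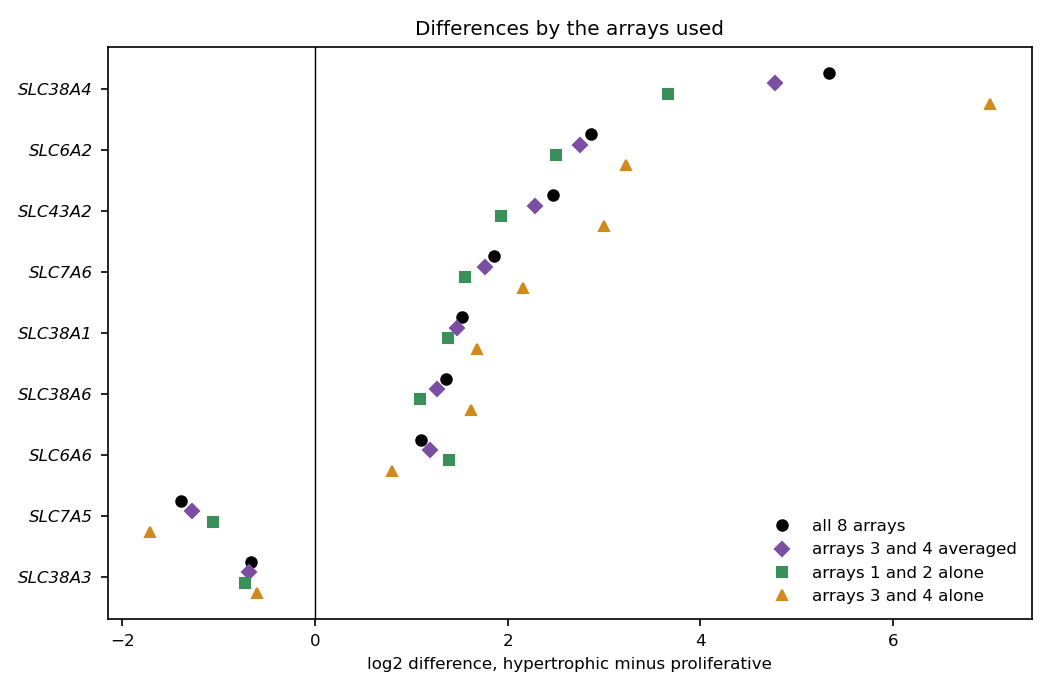
Log2 difference, hypertrophic minus proliferative, of the 9 members past the test, computed from all 8 arrays, with arrays 3 and 4 averaged, from arrays 1 and 2 alone and from arrays 3 and 4 alone. SLC38A4 runs from 3.66 to 7.01, and each member stays on 1 side of 0.

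The genes that make, sense and use amino acids were described through 8 lists with 126 measured genes, none of them a transporter of the families above. In all, 18 were higher in hypertrophic cells and 13 lower, shares of 14.3% and 10.3% beside the 7.34% and 5.60% of all genes, and 95 did not pass. With arrays 3 and 4 averaged, 4 were higher and 3 lower, and 15 of the 31 genes past the test passed whichever single array was left out. Of the genes named from these lists as past the test, some did not pass without 1 or more of the arrays, with limma adjusted p of up to 0.121. They were HERPUD1, STC2, VLDLR, CHAC1, TARS, PHGDH, GLDC, MTHFD2, GLUL, CDO1, BCAT1, SESN1, SESN3, RRAGA, WDR59 and CTNS.

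The stress response around ATF4, the factor that raises transcription of many transporter genes when amino acids are short, had 2 of 17 genes higher and 5 lower, with a median log2 difference of -0.15. EIF2AK3, the endoplasmic reticulum stress kinase PERK, fell to log2 levels of 6.35, 6.90, 7.12 and 7.04 on hypertrophic arrays, against 8.56, 8.79, 9.06 and 9.09 on proliferative arrays. The groups were far apart, at -2.02 ± 0.19 on the log2 scale (limma adjusted p = 0.000798, and 0.0142 with arrays 3 and 4 averaged). HERPUD1, of the degradation of misfolded proteins, differed by -2.21 ± 0.45 (adjusted p = 0.0202, averaged 0.0723). The secreted glycoprotein gene STC2 was higher by 1.48 ± 0.35 (adjusted p = 0.0330, averaged 0.171) and the lipoprotein receptor gene VLDLR by 1.20 ± 0.30 (adjusted p = 0.0390, averaged 0.210). The other 3 lower genes were PPP1R15B, CHAC1 and ATF4, at -0.92 ± 0.12, -1.002 ± 0.22 and -0.67 ± 0.13 with averaged adjusted p of 0.0278, 0.104 and 0.0757, and the asparagine synthetase gene ASNS differed by -0.15 ± 0.11 (limma adjusted p = 0.504). On arrays 1 and 2 alone STC2 differed by 0.78 and VLDLR by 0.55, and on arrays 3 and 4 alone VLDLR differed by 1.86. PPP1R15B, ATF4 and ASNS were chosen after their values were seen.

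Synthesis of serine, glycine and one-carbon units had 4 of 12 genes higher and 3 lower. ALDH1L2, a mitochondrial enzyme of folate metabolism, had log2 levels of 6.17, 7.15, 7.79 and 8.05 on hypertrophic arrays, against 4.10, 3.97, 4.02 and 4.43 on proliferative arrays. All proliferative arrays were below background, the estimate was 3.16 ± 0.36 and the bound at least 2.54 (limma adjusted p = 0.00176, averaged 0.0236). PSPH, the last enzyme of serine synthesis, had log2 levels of 8.06, 8.18, 8.16 and 8.16 on hypertrophic arrays, against 9.65, 9.44, 9.97 and 9.95 on proliferative arrays. PSPH fell by 1.61 on the log2 scale, with SE 0.13, and passed on averaging (limma adjusted p = 0.000489, averaged 0.0112). The mitochondrial folate genes MTHFD2 and MTHFD1L differed by -1.42 ± 0.36 and -1.21 ± 0.22, with averaged adjusted p of 0.0936 and 0.0766. Averaged over all probe sets of a gene, the log2 differences were smaller, at 1.36 for ALDH1L2, -0.67 for PSPH and -0.36 for MTHFD1L, which then did not pass (limma adjusted p = 0.0513). MTHFD2 differed by -2.23 on arrays 1 and 2 alone, -0.60 on arrays 3 and 4 alone and -0.92 with array weights. Besides ALDH1L2, the higher genes were the serine synthesis gene PHGDH at 0.72 ± 0.18, GCSH at 0.68 ± 0.12 and GLDC at 0.69 ± 0.15. Their limma adjusted p was 0.0446, 0.0129 and 0.0223, and 0.130, 0.106 and 0.122 with arrays 3 and 4 averaged. Both group means of GLDC lay below background. The serine synthesis gene PSAT1 differed by -1.97 ± 0.57 without passing (limma adjusted p = 0.0681, averaged 0.148). PHGDH, GCSH, GLDC and PSAT1 were chosen after their values were seen.

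Synthesis of proline, glutamine and aspartate had 3 of 12 genes higher and 1 lower. GLUL, which makes glutamine, had log2 levels of 5.59, 8.76, 9.29 and 9.01 on hypertrophic arrays, against 4.53, 4.69, 4.48 and 4.58 on proliferative arrays. Hypertrophic array 1 was low, as for SLC38A4, and the proliferative arrays were all below background. The GLUL estimate was 3.59 ± 0.71 and the bound at least 3.41 (limma adjusted p = 0.0173, averaged 0.124). It did not pass without hypertrophic array 2 or 4 or proliferative array 3 or 4 (limma adjusted p 0.0502 to 0.0561), and the mean of the GLUL probe sets differed by 2.33. ASS1, which joins citrulline and aspartate on the way to arginine, was higher by 2.73 ± 0.35, at least 2.38 (adjusted p = 0.00294, averaged 0.0404). ALDH18A1, the first enzyme of proline synthesis, differed by -1.07 ± 0.17 (adjusted p = 0.00659, averaged 0.0681), and the aspartate aminotransferase gene GOT1 by 0.67 ± 0.10 (adjusted p = 0.00554, averaged 0.0521).

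The cystine and glutathione list had 3 of 15 genes higher and 3 lower, and 2 were higher and 0 lower on averaging. GGT7, of the glutathione-cleaving family, was higher by 1.40 ± 0.14 (limma adjusted p = 0.000981, averaged 0.0127), or by 0.90 for the mean of its probe sets. GSR was higher by 0.89 ± 0.13 (limma adjusted p = 0.00523, averaged 0.0495) and was chosen after its values were seen. CDO1, which breaks down cysteine, differed by -1.63 ± 0.38 (adjusted p = 0.0314, averaged 0.191), and CHAC1, which cleaves glutathione and also stands on the ATF4 list, by -1.002 ± 0.22 (averaged 0.104). On arrays 1 and 2 alone CDO1 differed by -0.55, and on arrays 3 and 4 alone by -2.72. CBS, which commits homocysteine to cysteine, differed by -0.96 ± 0.17 with hypertrophic levels below background, a fall of at least 0.28 (limma adjusted p = 0.0104, averaged 0.0703). Breakdown of branched-chain amino acids had 0 of 13 genes higher and 1 lower, the transaminase gene BCAT1 at -0.78 ± 0.18 (limma adjusted p = 0.0279, averaged 0.161). The median log2 difference of that list was 0.11. BCKDHB, DBT and MCCC2 differed by 1.24 ± 0.42, 1.14 ± 0.33 and 0.99 ± 0.26 without passing (limma adjusted p 0.109, 0.0644 and 0.0503). These genes were chosen after their values were seen. The aminoacyl-tRNA synthetases had 1 of 18 higher and 1 lower, KARS for lysine at 0.55 ± 0.09 and TARS for threonine at -0.93 ± 0.20, with averaged adjusted p of 0.0646 and 0.157, and TARS differed by -0.50 on arrays 1 and 2 alone.

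The list of amino acid sensing upstream of mTORC1 had 4 of 26 genes higher and 0 lower, with a median log2 difference of 0.23, and 0 passed on averaging. SESN1, a sestrin that restrains mTORC1, had log2 levels of 10.44, 12.25, 12.53 and 12.63 on hypertrophic arrays, against 7.77, 10.12, 9.13 and 8.88 on proliferative arrays. The groups lay narrowly apart, with array 1 the lowest of each group and a log2 difference of 2.99 ± 0.58 (limma adjusted p = 0.0160, averaged 0.118, and 0.0508 without proliferative array 4). SESN3, another sestrin, was higher by 2.08 ± 0.44 (adjusted p = 0.0230, averaged 0.141), the Rag GTPase gene RRAGA by 0.67 ± 0.14 and the GATOR2 subunit gene WDR59 by 0.59 ± 0.12, with averaged adjusted p of 0.122 and 0.101. For the mean of their probe sets RRAGA differed by 0.36 and WDR59 by 0.29, which did not pass (limma adjusted p = 0.126). Carriers of amino acids outside the families above had 2 of 16 higher and 0 lower. SFXN1, the mitochondrial serine carrier, was higher by 1.87 ± 0.35 (limma adjusted p = 0.0142, averaged 0.0940), and CTNS, which exports cystine from lysosomes, by 0.91 ± 0.21 (adjusted p = 0.0303, averaged 0.148).

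**Figure D5:**
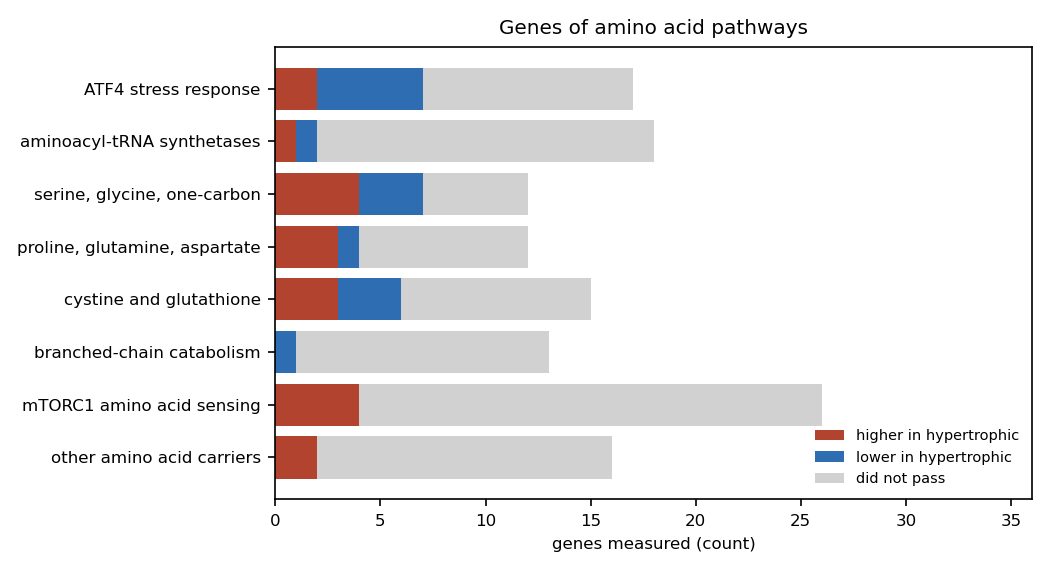
Number of measured genes on each of the 8 amino acid lists that were higher in hypertrophic cells (red), lower (blue) or did not pass (grey), limma adjusted p under 0.05 on 8 arrays. The ATF4 list has 2 higher and 5 lower of 17, and the mTORC1 list has 4 higher and 0 lower of 26. With arrays 3 and 4 averaged, these are 0 and 2 for ATF4 and 0 and 0 for mTORC1. Over all genes on 8 arrays, 7.34% were higher and 5.60% lower.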

How the data were processed

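The deposited log2 values were produced with RMA, as the submitters' processing notes state. This method corrects background, normalises by quantiles and summarises probe sets, and it compresses differences among dim ones. The sources used here do not name the software or a genome build. Precision is limited by the number of arrays. Of 38535 probe sets, 96 controls were left out. Through the platform annotation, with symbols updated from the RefSeq table of GRCg7b, 27168 probe sets have 1 symbol, 177 several and 11094 none. Levels of different probe sets served to choose probe sets and named genes and to set background, and differences between them were not tested.

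Differences, hypertrophic minus proliferative, were tested two-sided on all 38439 probe sets with limma 3.58.1 (lmFit and eBayes, R 4.3.3). On simulated data, it recovered 64% of 50 probe sets changed by 1 on the log2 scale and 96% of 50 changed by 2. Of its 192 calls there, 14 were false. Whether these rates hold for arrays that are near copies of each other was not tested. The members and lists were chosen with earlier results of these data known. Named genes are members past the test or with groups apart, some others by probe set or brightness, and up to 4 past the test per list. Alternatives covered normalisation, filters, variance model, array weights, probe set choice, blocks and omission of arrays. Promoter motifs were not analysed here.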

Additional observations from a re-analysis of the deposited data

Results flagged for a closer look

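In each group of 4 arrays, a member was marked where the gap between its highest or lowest array and the nearest other array took up more of the whole range than Dixon's 95% limit for 4 samples allows. Of 98 such groups, 4 were marked. The limit assumes 4 independent values, which the near copies on arrays 3 and 4 do not give, so the number expected by chance is not known here. SLC6A2 on hypertrophic array 1 had a log2 level of 5.28, against 7.79 to 8.11 on the other hypertrophic arrays. SLC1A7 was high on hypertrophic array 1, at 5.92 against 5.21 to 5.31. SLC15A1 was low on hypertrophic array 1, at 3.43 against 3.81 to 3.85. SLC6A4 was high on proliferative array 2, at 3.89 against 3.46 to 3.53. The levels of SLC15A1 and SLC6A4 lie below background.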

How the results depend on the processing

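The main counts were 7 higher and 2 lower members, 18 and 13 pathway genes, and 955 and 728 of all genes. Array weights gave 10 and 8 members, 29 and 26 pathway genes, and 1973 and 1694 of all genes. Arrays 1 and 2 alone gave 1 and 1 members, 3 and 7 pathway genes, and 309 and 278 of all genes. Arrays 3 and 4 alone, whose spread is that of nearly identical arrays, gave 14 and 9 members, 35 and 30 pathway genes, and 2356 and 2211 of all genes. Averaging arrays 3 and 4 gave 3 and 1 members, 4 and 3 pathway genes, and 261 and 161 of all genes. A block for arrays 1 and 2 against 3 and 4 gave 8 and 5 members and 1418 and 1197 of all genes, cyclic loess 7 and 1 members and 1141 and 657, and the mean of probe sets 7 and 4 members and 1018 and 971. For the mean of probe sets, SLC6A12 passed as higher and SLC6A6 did not pass, and SLC7A3 and SLC38A10 passed as lower. Centring on ribosomal protein genes gave 7 and 3 members and moved the split over all genes to 876 higher and 1002 lower.

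With each array omitted in turn there were 6 to 8 higher and 0 to 5 lower members, 8 to 28 and 7 to 15 pathway genes, and 484 to 1562 and 301 to 941 of all genes. Without hypertrophic array 1 there were 8 higher and 5 lower members. Without hypertrophic array 2 or 4, or proliferative array 1 or 4, 0 members were lower, and without hypertrophic array 3 or proliferative array 3 there was 1. Deviations of same-numbered arrays correlated at -0.01 to 0.22, and only hypertrophic array 1 correlated best with the array of its own number. Arrays 3 and 4 are nearly copies, so these values cannot decide whether the numbers pair samples. Correlations were -0.35 to -0.04 between arrays 1 or 2 of a group and arrays 3 or 4 of the other group. The remaining pairs across groups gave -0.01 to 0.32. The replicate block gave 7 and 2 members with SLC38A9 (adjusted p = 0.0464) in place of SLC38A3 (0.0617), and 18 and 12 pathway genes.

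Some members that did not pass turned direction. SLC38A2 differed by 0.62 with array weights, 1.01 on arrays 3 and 4 alone and -1.04 on arrays 1 and 2 alone, 0.0563 with cyclic loess, 0.0315 with quantile normalisation, and by -0.33 to 0.46 on leaving out 1 array, above 0 without hypertrophic array 1 or 2 or proliferative array 2 or 3. SLC3A1, at -0.50 on all arrays, differed by 0.16 with array weights, 0.78 on arrays 3 and 4 alone and -1.78 on arrays 1 and 2 alone. SLC1A4 differed by 0.59 on arrays 1 and 2 alone, 0.12 on averaging arrays 3 and 4, 0.39 for the mean of probe sets, and -0.40 to 0.12 on leaving out 1 array, above 0 without proliferative array 3 or 4. SLC7A11 differed by -0.0223 for the mean of probe sets, SLC6A8 by -0.17 to 0.0435 on leaving out 1 array, above 0 without hypertrophic array 1, and SLC7A6OS by 0.0438 on arrays 3 and 4 alone. The cause was not tested. Signal limits the 16 members below background, whose differences cannot be measured here.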
